A study of Homo sapiens with 4 samples.

Results

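The IFIT genes encode interferon-induced proteins built from tetratricopeptide repeats. The human family members examined here were IFIT1, IFIT2, IFIT3 and IFIT5, which were all rows of the deposited transcript tables that carry one of these symbols. They comprised 4 of 27685 genes and 11 of 63714 transcripts, and all 4 genes passed the filter on low counts that left 14868 genes for testing. The RNA came from HT-29, a human colorectal adenocarcinoma line used as a model of colonic epithelium. The labels name no interferon, infection or other treatment beyond TRIM40 or its control. The cells of one group stably expressed human TRIM40 with an N-terminal Myc tag (Myc-TRIM40), and the cells of the other, labelled WT, carried the control vector. TRIM40, a TRIM-family E3 ubiquitin ligase, was cloned in the retroviral vector pMSCV, and the study selected transduced cells with puromycin, so TRIM40 RNA was read here from a transgene. Each group had 2 libraries, 1 from each of 2 experiments that the study calls independent. The labels do not say whether a line was a single clone or a mixed population, or whether the libraries came from separate cultures. The p-values here cover no spread beyond these libraries. Those of edgeR also rest on spread pooled over all tested genes (1 residual degree of freedom against a median prior of 7.44). The comparison asks how the RNA of the interferon-stimulated IFIT genes differed when TRIM40 was overexpressed.

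IFIT proteins have no known enzymatic activity and act by binding RNA and other proteins. IFIT1 recognises RNA whose cap lacks the methyl groups that mark RNA as self and keeps it from the ribosome. IFIT2 and IFIT3 assemble with IFIT1, with IFIT3 stabilising the complex, while IFIT5 binds uncapped triphosphate RNA as a single protein. In most uninfected epithelial cells the genes are weakly transcribed. Type I and type III interferons activate them through a complex of transcription factors that includes STAT2 and IRF9 and binds the interferon-stimulated response element, and IRF3 can act on the same element directly.

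The files place all 4 genes on chromosome 10 of hg19, within 119054 bases from 91061706 to 91180759. From low to high coordinate, IFIT2 lies at 91061706 to 91069033, IFIT3 at 91087576 to 91100725, IFIT1 at 91152303 to 91166244 and IFIT5 at 91174325 to 91180759. Their paralog IFIT1B is the fifth gene of the span. No locus of a member overlapped another annotated gene. Of the distinct 50-base stretches in the GENCODE transcripts of IFIT1, 0.824% also occurred in IFIT1B and in no other member, while IFIT2, IFIT3 and IFIT5 shared no stretch of that length with another IFIT gene. IFIT1B itself had 0 reads in both control libraries, 5 with Myc-TRIM40 in experiment 1 and 0 with it in experiment 2.

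The promoters are shown because the members were all higher in Myc-TRIM40 cells and the response element is the sequence through which interferon is known to act on them. RefSeq windows for GRCh38.p14, from 250 bases before to 50 bases after a start site, were found for 3 of the 4 members and for IFIT1B, and IFIT3 had 2 windows, the first and the second along the chromosome. Their RefSeq start sites lie 4532 bases apart, and the 2 transcript starts that the deposited files give for IFIT3 in hg19 lie 4660 bases apart, so the windows are not both set on the starts whose reads are reported here. The builds were not converted, and every distance below is counted from the RefSeq start of its own window. The stretches shown run from 180 bases before that start to 10 bases after it. Capitals mark the core of the response element, taken as 2 copies of GAAA separated by any 2 bases and searched on both strands, so that every capital run here reads as TTTC copies on the plus strand.
IFIT3 first window, chr10:89327817-89328006, plus strand: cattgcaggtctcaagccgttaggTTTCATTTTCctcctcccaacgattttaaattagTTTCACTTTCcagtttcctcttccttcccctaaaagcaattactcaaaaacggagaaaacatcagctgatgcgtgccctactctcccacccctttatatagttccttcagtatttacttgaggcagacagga
IFIT3 second window, chr10:89332349-89332538, plus strand: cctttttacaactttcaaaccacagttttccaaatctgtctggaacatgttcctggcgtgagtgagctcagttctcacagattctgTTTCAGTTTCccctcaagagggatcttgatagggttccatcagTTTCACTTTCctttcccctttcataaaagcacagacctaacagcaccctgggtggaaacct
IFIT1, chr10:89392443-89392632, plus strand: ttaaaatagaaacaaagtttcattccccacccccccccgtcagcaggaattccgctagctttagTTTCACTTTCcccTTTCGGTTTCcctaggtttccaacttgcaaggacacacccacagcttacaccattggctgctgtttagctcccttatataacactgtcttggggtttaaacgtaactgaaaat
IFIT5, chr10:89414388-89414577, plus strand: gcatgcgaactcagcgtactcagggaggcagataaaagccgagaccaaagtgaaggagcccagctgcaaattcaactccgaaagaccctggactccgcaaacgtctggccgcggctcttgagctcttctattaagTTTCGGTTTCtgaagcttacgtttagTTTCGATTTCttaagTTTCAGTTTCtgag
IFIT1B, chr10:89377876-89378065, plus strand: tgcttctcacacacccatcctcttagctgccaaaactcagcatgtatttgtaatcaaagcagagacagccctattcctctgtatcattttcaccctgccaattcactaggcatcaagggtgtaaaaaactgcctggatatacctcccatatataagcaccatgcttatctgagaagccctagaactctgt
The matches began 156 and 122 bases before the RefSeq start in the first IFIT3 window and 94 and 51 bases before it in the second. The IFIT1 window held 2 matches, which began 116 and 103 bases before the start. The IFIT5 window held 3 matches, the nearest of which began 4 bases before the start and reached across it. The IFIT1B window held 0. Of all 35116 RefSeq promoter windows of this length, 3.57% held at least 1 match and 0.259% held at least 2. The spaced gamma-activated sequence, TTC and GAA with any 3 bases between them, was found in 7.66% of all windows and in none of these 5. The letters TATAAA, present in 11.5% of all windows on either strand, were found only in the first IFIT3 window and on its minus strand, beginning 30 bases before the start. These matches describe letters in a window and not bound sites.

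**Figure D1:**
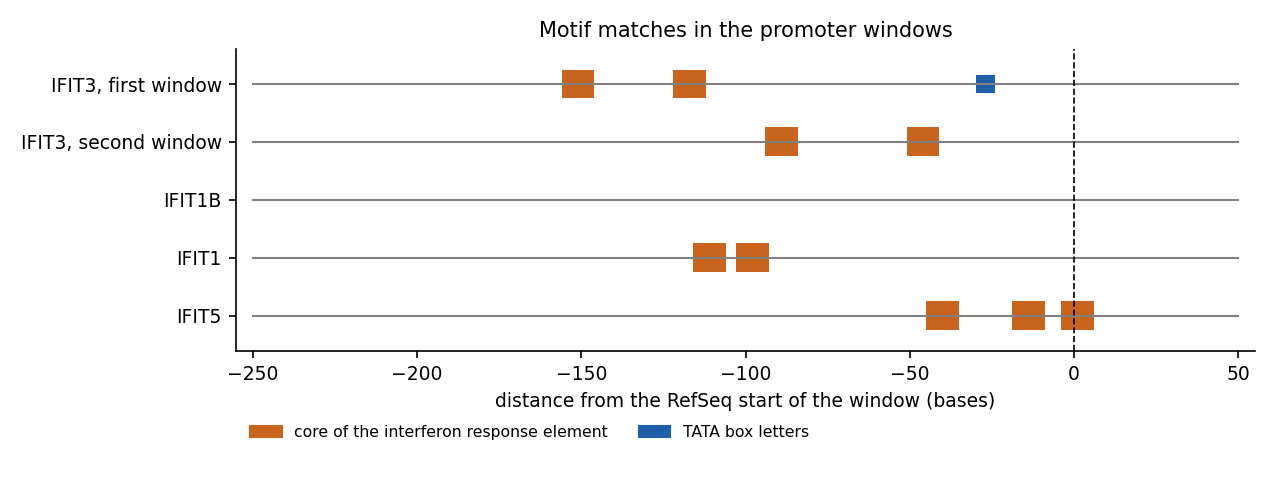
Position of each motif match (horizontal axis, bases from the RefSeq start of the window, dashed line) in the 5 promoter windows, with orange boxes for the core of the response element and blue for the TATA box letters. The 4 windows of IFIT3, IFIT1 and IFIT5 hold 2 or 3 orange boxes each and the IFIT1B window holds none.

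TRIM40 (Entrez gene 135644) was at 0 reads in both control libraries and with Myc-TRIM40 at 272646 reads in experiment 1 and 110665 in experiment 2, as labelled. Totals lay between 60954602 and 67424698 estimated reads a library. The 10 colonic epithelial markers summed to between 6829 and 9402 FPKM (reads scaled by transcript length and library total), with none at 0 reads in any library. The largest were the keratins KRT8 (3355 to 4435 FPKM) and KRT18 (2391 to 3680 FPKM). The lowest were CDX1 (0.32 to 0.41 FPKM), CDX2 (1.22 to 1.39 FPKM) and CEACAM5 (1.36 to 2.66 FPKM). The 6 markers of leukocytes, fibroblasts and endothelium summed to between 2.11 and 3.42 FPKM, and 2 or 3 of them were at 0 reads in each library. CD3E and COL1A2 were at 0 in all, and PTPRC had at most 4 reads. CD14 (148 to 297 reads, 1.43 to 2.61 FPKM), COL1A1 (123 to 352 reads) and PECAM1 (17 to 31 reads) had reads in every library. Because RNA was pooled over many cells, more RNA in every cell and a larger share of responding cells cannot be told apart.

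In experiment 1 the 4 members together gave 12.5 FPKM with the control vector and 99.9 FPKM with Myc-TRIM40, a 7.99-fold difference. Experiment 2 gave 10.2 and 18.6 FPKM, a 1.83-fold difference. The control libraries were close to each other, and the Myc-TRIM40 library of experiment 1 stood far above the other 3. Both Myc-TRIM40 libraries were above both control libraries in FPKM for 3 of the 4 members, as for 15.2% of tested genes. The exception was IFIT2, whose Myc-TRIM40 level of experiment 2 lay between the control values.

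**Figure D2:**
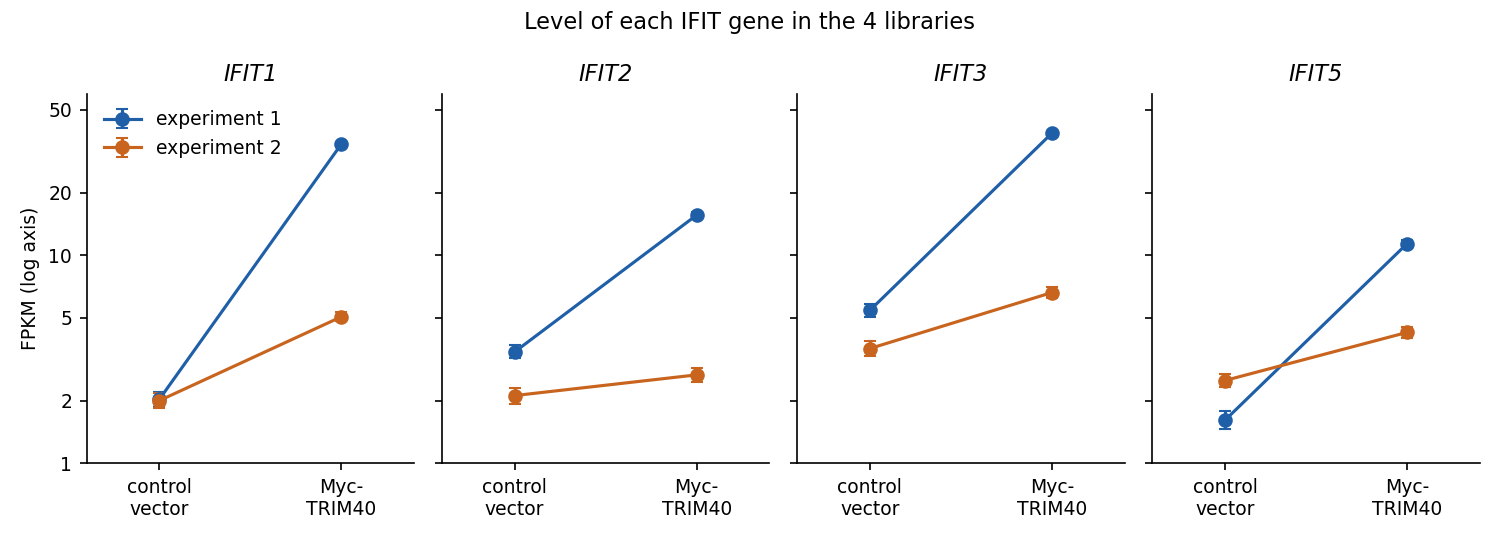
FPKM (vertical log axis) of IFIT1, IFIT2, IFIT3 and IFIT5 in the control vector and Myc-TRIM40 libraries, with a line joining the libraries of an experiment and bars for the 95% interval of counting error. Every Myc-TRIM40 point lies above the control point it is joined to, further so in experiment 1, and the closest pair is IFIT2 in experiment 2, at 2.11 and 2.66 FPKM.

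IFIT1 (Entrez gene 3434), the cap-sensing member, had the largest difference. In experiment 1 it had 558 reads (2.03 FPKM) with the control vector and 9442 reads (34.3 FPKM) with Myc-TRIM40. Experiment 2 gave 611 reads (2.00 FPKM) with the control vector and 1427 reads (5.06 FPKM) with Myc-TRIM40. The control levels were nearly equal, and both Myc-TRIM40 levels lay above them. Scaled by TMM, the edgeR normalization that equalises library composition, IFIT1 was 16.5-fold higher in experiment 1 (15.1 to 18.0, exact binomial 95% interval for counting error alone) and 2.31-fold higher in experiment 2 (2.1 to 2.55).

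IFIT3 (Entrez gene 3437), the partner that stabilises IFIT1 on RNA, was the most abundant member per length in all 4 libraries. Its control and Myc-TRIM40 libraries held 860 and 6121 reads (5.43 and 38.6 FPKM) in experiment 1. They held 629 and 1078 reads (3.56 and 6.61 FPKM) in experiment 2. The Myc-TRIM40 level of experiment 2 was above both control levels but much nearer to them than that of experiment 1. The TMM-scaled fold was 6.93 (6.45 to 7.45) in experiment 1 and 1.70 (1.54 to 1.88) in experiment 2.

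IFIT5 (Entrez gene 24138), which binds triphosphate RNA, gave 407 reads (1.61 FPKM) with the control vector and 2873 reads (11.4 FPKM) with Myc-TRIM40 in experiment 1. In experiment 2 there were 700 reads (2.50 FPKM) with the control vector and 1102 reads (4.26 FPKM) with Myc-TRIM40. In FPKM, IFIT5 was the only member whose control level was higher in experiment 2 than in experiment 1, by 1.55-fold. In reads the control of IFIT1 was also higher in experiment 2, at 611 against 558. The TMM-scaled folds were 6.87 (6.19 to 7.64) and 1.56 (1.42 to 1.72) in experiments 1 and 2.

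IFIT2 (Entrez gene 3433), which pairs with IFIT1 and IFIT3 and also binds AU-rich RNA, differed least. With the control vector and with Myc-TRIM40 it had 750 reads (3.43 FPKM) and 3420 reads (15.6 FPKM) in experiment 1. In experiment 2 it had 513 reads (2.11 FPKM) and 597 reads (2.66 FPKM). The control levels of the experiments were further apart than the 2 libraries of experiment 2, so the groups overlapped. The TMM-scaled fold was 4.44 (4.10 to 4.81) in experiment 1 and 1.15 (1.02 to 1.3) in experiment 2.

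Across both experiments, none of the 4 members passed an adjusted p of 0.05 in edgeR's quasi-likelihood test, a threshold that 0.0404% of the tested genes passed as higher in Myc-TRIM40. All 4 had an unadjusted p under 0.05 on the higher side, against 3.41% of tested genes. That count was 3 of 4 with no replicate block or with no filter, where the unadjusted p of IFIT2 was 0.0831 and 0.0793 in edgeR. All genes higher at this threshold numbered 128 with no block and 343 with no filter, against 507 in the main fit. The fit with no filter covered every gene with a read. The log2 fold change of IFIT1 was 2.63 (standard error 0.60, unadjusted p = 0.00203, adjusted p = 0.465 by edgeR). That of IFIT3 was 1.79 (standard error 0.44, unadjusted p = 0.00316, adjusted p = 0.556 by edgeR) and that of IFIT5 was 1.71 (0.46, 0.00515 and 0.702 in the same order). For IFIT2 it was 1.19 (0.42, 0.0206 and 0.888). The median of the 4 log2 fold changes was 1.75, and that of all tested genes was 0.04. With DESeq2 as the tool, IFIT3 (adjusted p = 0.00232) and IFIT5 (adjusted p = 0.0114) passed, whereas IFIT2 (adjusted p = 0.402) and IFIT1 (adjusted p above 0.99) did not, and 0.303% of tested genes passed as higher. In limma on log2(FPKM + 1) each member had an adjusted p of 0.819.

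The experiments lay further apart than counting error. The log2 folds of experiments 1 and 2 had a standard deviation of 2.00 for IFIT1, 1.38 for IFIT2, 1.43 for IFIT3 and 1.51 for IFIT5, each wider than its counting interval. Without experiment 1 the log2 fold changes were 1.21, 0.21, 0.76 and 0.64 for IFIT1, IFIT2, IFIT3 and IFIT5, and without experiment 2 they were 4.04, 2.15, 2.79 and 2.78. Each of these has 1 library a group, so the difference between the experiments was not tested. With 2 libraries a group, the smallest two-sided p of an exact permutation test that ignores the pairing by experiment is 0.333. Permuting only within experiments allows fewer arrangements, and no such test was run.

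**Figure D3:**
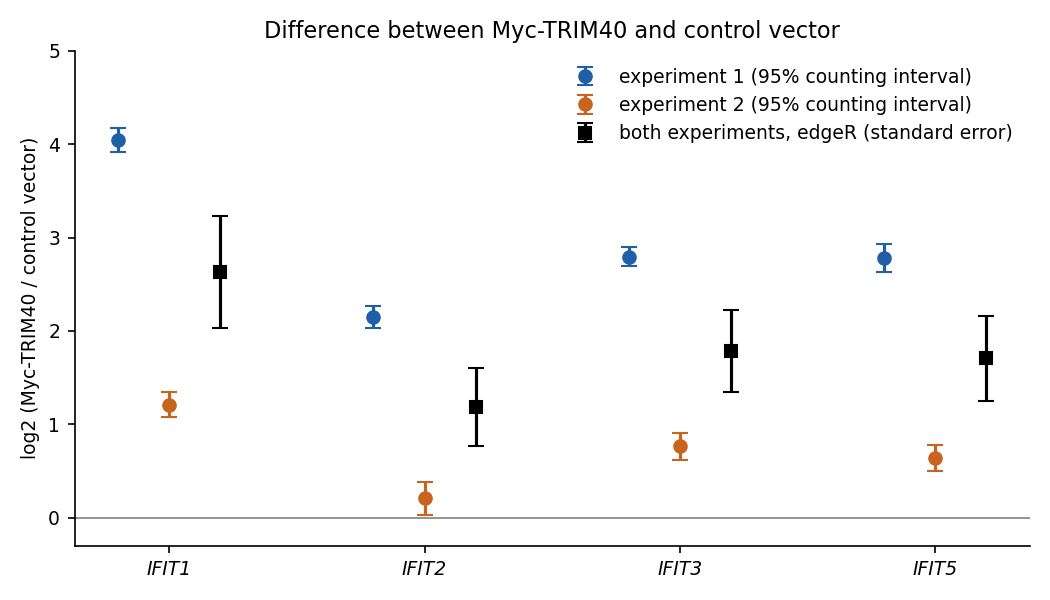
The log2 ratio of Myc-TRIM40 to control vector (vertical axis) for each member in experiment 1 (blue) and experiment 2 (orange), with 95% counting intervals, and from the edgeR fit to both (black, standard error). All points lie above 0, and the blue and orange intervals of a gene do not meet.

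Within an experiment, a ratio of at least 1.5 in FPKM + 1 was seen for all 4 members in experiment 1, as for 2.78% of tested genes on the higher side, and for 3 of 4 in experiment 2, as for 8.54%. IFIT2, at 1.18-fold on this scale in experiment 2, was the exception, and IFIT5 lay at the limit with 1.5-fold. The 3 other members passed in both experiments, as did 0.457% of tested genes. With the ratios centred on the median, IFIT5 fell below the limit in experiment 2 (log2 ratio 0.49, against 0.59 uncentred). On the FPKM + 1 scale IFIT1 ranked 11 among the tested genes in experiment 1 and 223 in experiment 2. IFIT3 ranked 24 and 650, IFIT5 40 and 1253, and IFIT2 62 and 4672, so the members kept their order among themselves and had lower ranks in experiment 2. The study placed IFIT1, IFIT3 and IFIT5 in a gene list it chose for change in its own RNA-seq, so their direction is not independent evidence.

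The order of the levels per length also shifted. In the control library of experiment 1, IFIT3 was highest, followed by IFIT2, IFIT1 and IFIT5, with counting intervals that did not meet. In the control library of experiment 2, IFIT3 was again highest, but IFIT5 came next, and IFIT2 (1.94 to 2.31 FPKM) and IFIT1 (1.85 to 2.17 FPKM) were not separated by counting error. Below IFIT3, the order of the control levels therefore did not hold between the experiments. In both Myc-TRIM40 libraries IFIT1 took the second place, at 34.3 FPKM against 38.6 for IFIT3 in experiment 1 and 5.06 against 6.61 in experiment 2.

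The share of IFIT1 in the summed FPKM of the family was 16.3% with the control vector and 34.4% with Myc-TRIM40 in experiment 1, and 19.7% and 27.2% in experiment 2. The share of IFIT2 was lower in Myc-TRIM40 cells, at 27.4% against 15.6% and at 20.8% against 14.3%. Of the summed difference in FPKM between Myc-TRIM40 and control vector, IFIT1 and IFIT3 made up 36.9% and 38.0% in experiment 1 and 36.4% and 36.3% in experiment 2. IFIT2 made up 13.9% and 6.47% of the difference, and IFIT5 11.2% and 20.9%. The pair of IFIT1 and IFIT3 thus held nearly the same part of a difference that measured 87.4 FPKM in experiment 1 and 8.42 FPKM in experiment 2.

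IFIT2 and IFIT5 have a single transcript in the files, IFIT1 has 5 and IFIT3 has 4. Of the IFIT1 transcripts, which the files give the same start and end, the 4379-base form carried 93.5% and 93.4% of the gene's reads in the control and Myc-TRIM40 libraries of experiment 1. It carried 86.6% and 93.4% in those of experiment 2. The 4488-base form was the next in 3 libraries, with up to 6.45% of the reads, while the 4493-base form held 13.4% in the control library of experiment 2 and at most 1.01% in the others. The remaining IFIT1 forms, of 4476 and 4614 bases, never exceeded 0.561% of the gene's reads. The leading IFIT1 form was the same in all 4 libraries.

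The deposited IFIT3 transcripts start at 2 positions that lie 4660 bases apart in hg19. From the upstream start, at 91087576, only the 2568-base form had reads, while the 2686-base form from the same start had 0 in all 4 libraries. It held 580 reads with the control vector and 3842 with Myc-TRIM40 in experiment 1, and 485 and 781 in experiment 2. The forms from the downstream start, at 91092236, held 280 and 2279 reads in experiment 1 and 144 and 297 in experiment 2. As FPKM ratios these are 6.61 and 1.74 for the upstream start and 8.11 and 2.24 for the downstream start. The downstream start thus took 32.6% and 37.2% of the gene's reads in the control and Myc-TRIM40 libraries of experiment 1, and 22.9% and 27.6% in experiment 2. Its share was higher in Myc-TRIM40 cells in each experiment, but both shares of experiment 1 exceeded both of experiment 2, and shares between transcripts of a gene are estimates. The downstream reads were nearly all assigned to the 2457-base form, the 2579-base form having 77 reads with Myc-TRIM40 in experiment 1 and 0 in the other libraries.

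**Figure D4:**
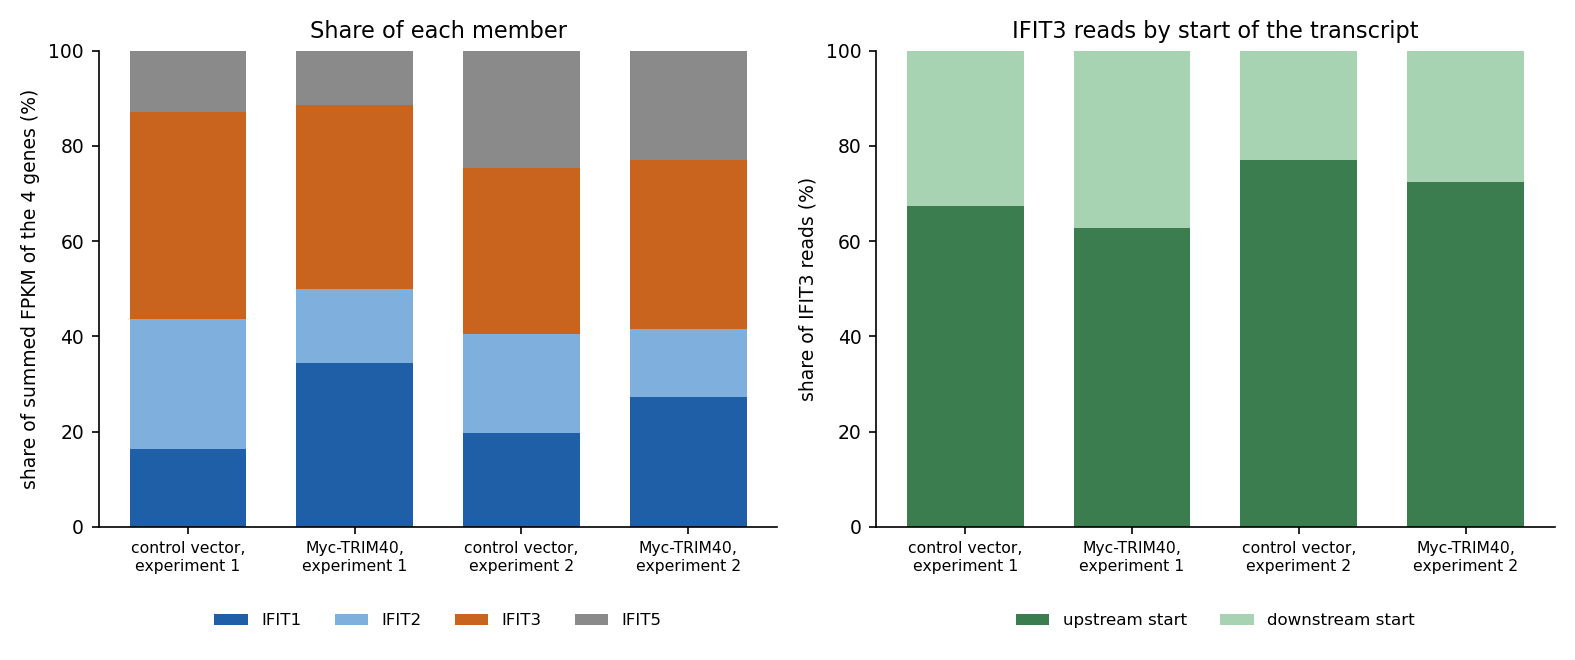
Left, share of each member in the summed FPKM of the 4 genes (vertical axis, percent) in each library. Right, share of IFIT3 reads assigned to transcripts of the upstream and downstream start. The share of IFIT1 is larger in Myc-TRIM40 cells in both experiments, and that of the downstream IFIT3 start is 32.6% against 37.2% and 22.9% against 27.6%.

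The genes around the cluster were examined for their position. None of the 7 tested neighbours had an unadjusted p under 0.05 in edgeR, near the background of 507 genes higher and 168 lower among 14868 tested. None passed the adjusted threshold, and their median log2 fold change was 0.28. LIPA, which encodes lysosomal acid lipase, had 0.44 (standard error 0.22), and ACTA2, encoding smooth muscle actin, had 0.68 (0.37). PANK1, a pantothenate kinase, had 0.28 (0.22) and KIF20B, a mitotic kinesin, 0.17 (0.23). The death receptor gene FAS had 0.04 (0.24) and the deubiquitinase gene STAMBPL1 had -0.14 (0.21). ACTA2 and FAS overlap at one end in the files, so reads there may be shared between them. The transporter gene SLC16A12, with 4 to 24 reads a library, had 0.80 (0.81). CH25H, encoding cholesterol 25-hydroxylase and itself inducible by interferon, had no read in any library. Each of these values is below that of the lowest member, 1.19 for IFIT2, and the difference between neighbours and members was not tested.

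Upstream of the IFIT genes, RNA of the interferons themselves was scarce. Of 10 ligand genes, IFNA2, IFNK, IFNW1 and IFNG had no read in any library, IFNA1 had 2 reads in 1 library, and only the epithelial interferon IFNE passed the filter, with 76, 72, 93 and 94 reads in the control and Myc-TRIM40 libraries of experiments 1 and 2 (log2 fold change -0.06, standard error 0.37). The other 4 ligands were not tested and are named, like those without reads, after their values were seen. IFNB1, encoding interferon beta, gave 32 reads with Myc-TRIM40 in experiment 1 and 0 in the other libraries. The lambda interferon gene IFNL1 had 176 reads in the same library, 8 in its control and 5 in each library of experiment 2. IFNL2 had 65 reads there and 0 elsewhere, and IFNL3, nearly identical to IFNL2 so that reads may be shared between them, had 53 there and 0, 5 and 0 elsewhere. The library with these reads is the one in which every IFIT gene was highest, and their part in the IFIT levels was not tested.

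The receptor chains and receptor kinases showed small values. None of the 6 had an unadjusted p under 0.05 in edgeR, near the background of 507 genes higher and 168 lower among 14868 tested. The median log2 fold change was 0.18. The largest values were 0.49 (standard error 0.25) for the lambda receptor chain IFNLR1, 0.34 (0.22) for the kinase JAK1 and 0.22 (0.22) for the receptor chain IFNAR2. All 6 values were below the lowest member value, and that difference was not tested.

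Among 7 transcription factors of the response element, none passed the adjusted threshold in edgeR and the median was 0.46. Of the 7, 3 had an unadjusted p under 0.05, all higher in Myc-TRIM40, against 3.41% of tested genes on that side. They were IRF9 and STAT2, which act in the interferon-activated complex, and IRF7, which amplifies the response. IRF9 had 963 reads with the control vector and 4360 with Myc-TRIM40 in experiment 1, and 953 and 1714 in experiment 2, a log2 fold change of 1.49 (standard error 0.32, edgeR adjusted p = 0.394). In the same order STAT2 had 1674 and 3607, then 1129 and 1555 reads (0.76, standard error 0.24, edgeR adjusted p = 0.888). For IRF7 the log2 fold change was 1.26 (standard error 0.42). With DESeq2 IRF9 passed (adjusted p = 0.00303) and no other gene of the list did, against 0.303% of tested genes as higher. For IRF9 and IRF7 both Myc-TRIM40 libraries were above both controls, while for STAT2, as for IFIT2, the Myc-TRIM40 library of experiment 2 lay between them. The Myc-TRIM40 library of experiment 1 was the highest for all 3 genes.

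Of the 10 sensors, adaptors and kinases upstream of interferon, 5 had an unadjusted p under 0.05, all higher, against 3.41% of tested genes. The median log2 fold change over the list was 0.61. The 3 with the largest values were the cytoplasmic RNA sensors DDX58 (RIG-I, 1.82, standard error 0.48), IFIH1 (MDA5, 1.80, standard error 0.45) and DHX58 (LGP2, 1.66, standard error 0.37). The others, named after their values were seen, were the endosomal sensor gene TLR3 (1.15, standard error 0.37) and TRIM25 (0.70, standard error 0.22), a ligase that acts on RIG-I. DDX58 held 845 and 6623 reads in experiment 1 and 759 and 1241 in experiment 2, with the control vector first. None of the 10 passed the adjusted threshold in edgeR. With DESeq2 the genes DDX58 (adjusted p = 0.00314), IFIH1 (adjusted p = 0.00247) and DHX58 (adjusted p = 0.00835) passed. The others of the list did not, and 0.303% of tested genes passed as higher. Among genes that restrain the response, USP18 removes ISG15 from proteins and dampens receptor signalling. Its log2 fold change was 1.68 (standard error 0.41, edgeR adjusted p = 0.543, DESeq2 adjusted p = 0.00879). SOCS3, with 24 to 53 reads, had 0.60 (standard error 0.53) and passed in neither tool. SOCS1 had too few reads to test, with 0 and 25 in experiment 1 and 6 and 10 in experiment 2.

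The 8 genes listed as cap methylation and translation factors had a median log2 fold change of 0.13. Of these, 1 had an unadjusted p under 0.05, on the higher side, against 3.41% of tested genes. This was EIF2AK2, encoding the kinase PKR that halts translation on double-stranded RNA and itself inducible by interferon. It had 2798 and 9168 reads in experiment 1 and 1698 and 3570 in experiment 2. Its log2 fold change was 1.37 (standard error 0.24, edgeR adjusted p = 0.174, DESeq2 adjusted p = 0.000188). No other gene of the list passed with DESeq2. The next by size were the initiation factor subunit gene EIF3C at -0.57 (standard error 0.26) and the cap methyltransferase gene CMTR1 at 0.46 (standard error 0.21). EIF3C has a near-identical copy in the genome, so its reads are uncertain.

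Of the 10 other antiviral effectors, 8 had an unadjusted p under 0.05 in edgeR, all higher, against 3.41% of tested genes. None passed the adjusted threshold in edgeR. The median log2 fold change was 2.27, against 1.75 for the IFIT genes. RSAD2, encoding viperin, had 21 and 780 reads in experiment 1 and 7 and 44 in experiment 2 (4.29, standard error 0.58, edgeR adjusted p = 0.0795). OAS2, which makes the activator of RNase L, had 3.98 (standard error 0.77), and IFITM1, a membrane protein that hinders virus entry and shares sequence with its paralogs, 3.73 (standard error 1.20). The 2 that missed, named after their values were seen, were ISG15 (1.31, standard error 0.67) and BST2 (0.96, standard error 0.50), whose log2 ratios of FPKM + 1 were 2.92 and 2.16 in experiment 1 and -0.15 and -0.10 in experiment 2. Like the other 8 effectors, no IFIT gene had a log2 ratio below 0 in either experiment. Of the 14868 tested genes, 8446 had a log2 ratio above 0 in experiment 1 and 9171 in experiment 2. With DESeq2 the effectors OAS3 (adjusted p = 1.74e-08), RSAD2 (adjusted p = 2.43e-07) and OAS1 (adjusted p = 9.95e-06) passed. The other effectors did not, and 0.303% of tested genes passed as higher. OAS1 and OAS3 are named after their values were seen.

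**Figure D5:**
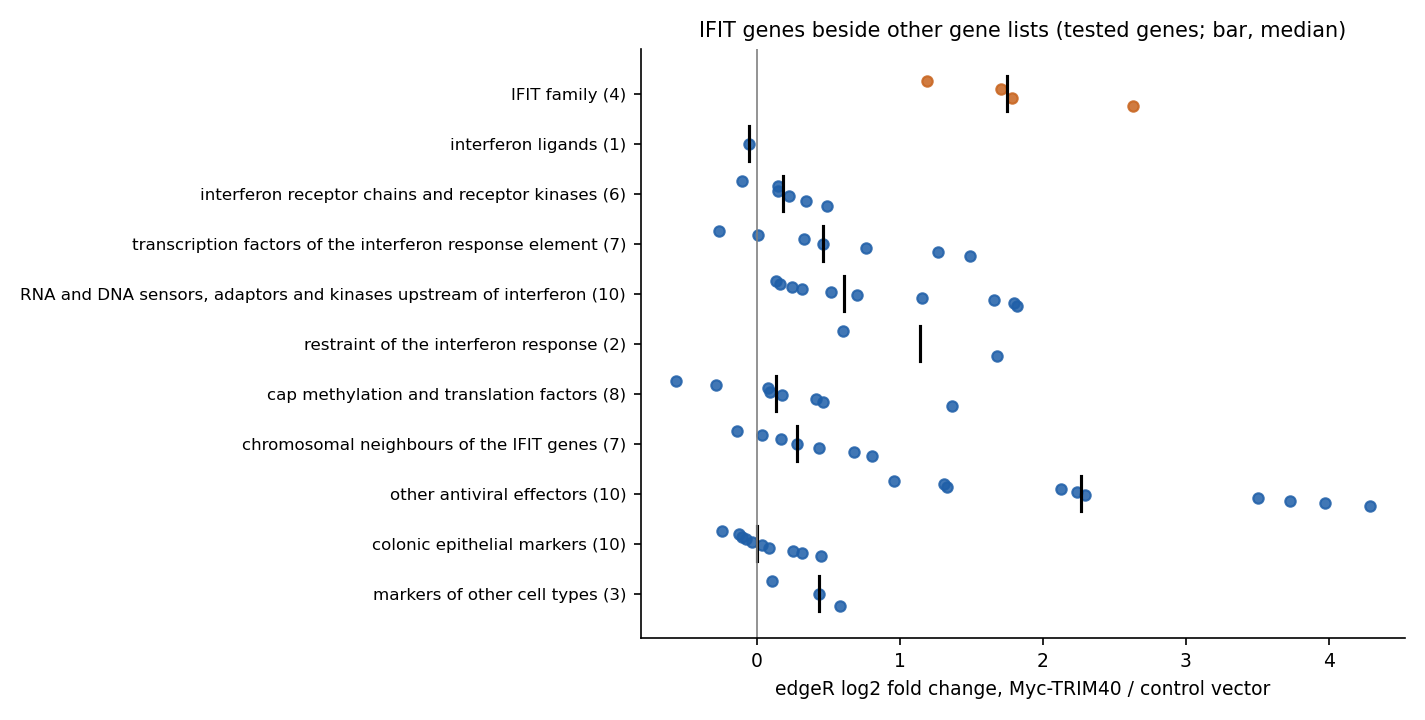
The edgeR log2 fold change (horizontal axis) of every tested gene of the IFIT family (orange) and of the other lists (blue), with the number tested in parentheses and a bar at the median. The IFIT genes lie between 1.19 and 2.63, to the right of all 7 tested neighbours and all receptor genes, and within the range of the other antiviral effectors.

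The genes most like the family were sought by the distance between profiles, the Euclidean distance over the 4 libraries of log2 TMM-normalized reads per library total centred on each gene's mean. Nearest to the mean of the members were CFB, encoding complement factor B (distance 0.096), C6orf222 (0.097), the sensor gene IFIH1 (0.112), the sensor gene DDX58 (0.133) and HSH2D, encoding an adaptor with an SH2 domain (0.184). CFB measured 1.38 and 10.2 FPKM in experiment 1, and 1.15 and 2.19 FPKM in experiment 2, with the control vector first. These genes were picked as nearest, so their distances are small by selection and are not set against those between members. The distances between members ran from 0.604 between IFIT2 and IFIT3 to 1.53 between IFIT1 and IFIT2. IFIT1 was nearest to HERC6, a HECT-type ligase gene (0.116), and to LAMP3, a lysosomal membrane protein gene (0.25). In the same order HERC6 measured 1.88 and 28.8 FPKM, then 1.68 and 4.34 FPKM, beside 2.03 and 34.3, then 2.00 and 5.06 FPKM for IFIT1. IFIT2 was nearest to SECTM1 (0.179) and the guanylate-binding protein gene GBP4 (0.261), and IFIT3 to DDX58 (0.222) and TNFAIP3, encoding the ubiquitin-editing enzyme A20 (0.224). IFIT5 was nearest to BIRC3, encoding an inhibitor of apoptosis (0.277), and to the metalloprotease gene MMP25 (0.294). In each of these profiles the Myc-TRIM40 library of experiment 1 held the highest value, as it did in the member profiles they were picked to resemble. The distances, over 4 libraries, carry no test.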

How the data were processed

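RNA-seq was measured in 4 HT-29 libraries, made with a TruSeq stranded mRNA kit and sequenced on a NovaSeq system. For each transcript the authors deposited estimated counts of reads, whole and not normalized, and FPKM, which scales the reads by transcript length and library total. TPM was deposited by the authors for experiment 2 and was computed here from FPKM for experiment 1, and deposited transcript lengths were also used. The submitters' processing notes name HISAT2 2.1.0, StringTie 1.3.4d and hg19. Estimates that divide reads between transcripts make isoform values less certain than gene sums. Columns of other samples numbered 0.

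Here transcripts were summed by gene identifier. Reads were tested with edgeR 4.0.16 in R 4.3.3 (glmQLFit and glmQLFTest, filterByExpr, TMM, Benjamini-Hochberg over 14868 genes) with a term for the experiment. Replicate numbers in the labels pair the libraries, and so do the files, which each hold 1 control and 1 Myc-TRIM40 library of the same experiment, and libraries with the same number deviated together (correlation 0.396 across genes). The residual degrees of freedom were 1, with a median prior of 7.44. Ratios within an experiment used FPKM + 1 or TMM-scaled reads with exact binomial 95% intervals, which cover counting error only. The code was tested on simulated counts. Alternatives were no block, DESeq2 1.42.0, limma 3.58.1 on log2(FPKM + 1), upper-quartile and median-centred scaling, no filter, each experiment left out, a pseudocount of 0.1, TPM, a minimum mean FPKM of 1, a threshold of 2 and the longest transcript alone. Python 3.11.15 with pandas 2.3.3 and scipy 1.17.1 did the rest.

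The members and lists were chosen with earlier results of these data known. Named genes were the members, TRIM40, every chromosomal neighbour, STAT2, IRF9, the 3 largest log2 fold changes of each list, and the 5 genes nearest to the mean profile and the 2 nearest to each member. Promoters came from RefSeq tables for GRCh38.p14, and coordinates of the 2 builds were not converted. No protein sequence was used here. The microarray data of the study were not analysed here. Some results that these rules cover are left out here.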

Additional observations from a re-analysis of the deposited data

How the results depend on the processing

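No member changed direction: of 64 values of members under the alternatives 62 were above 0, and the other 2 were IFIT3 in each experiment with the longest transcript alone, which has 0 reads. The 6 genes called higher and 3 called lower became 0 and 0 with no replicate block (128 and 25 at an unadjusted p under 0.05), 0 and 0 with no filter (343 and 104 unadjusted), 45 and 9 with DESeq2 and 3 and 0 with limma (587 and 134 unadjusted). Without the block that pairs the libraries, the log2 fold changes of IFIT1, IFIT2, IFIT3 and IFIT5 were 3.21, 1.65, 2.26 and 1.83 and no member passed. With DESeq2, IFIT3 (1.76) and IFIT5 (1.68) passed the adjusted threshold. Leaving out 1 experiment gave 1.21 to 4.04 for IFIT1, 0.21 to 2.15 for IFIT2, 0.76 to 2.79 for IFIT3 and 0.64 to 2.78 for IFIT5.

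The log2 ratio of FPKM + 1 for IFIT1, IFIT2, IFIT3 and IFIT5 in experiment 1, main values 3.54, 1.91, 2.62 and 2.24, was 4.01, 2.15, 2.81 and 2.75 with a pseudocount of 0.1 and 3.84, 2.08, 2.76 and 2.55 with TPM. In experiment 2, main values 1.01, 0.23, 0.74 and 0.59, it was 1.35, 0.47, 1.02 and 0.87 with TPM, and 1.3 for IFIT1 and 0.75 for IFIT5 with a pseudocount of 0.1. Centred on the median, it was 3.53, 1.89, 2.61 and 2.23 in experiment 1 and 0.92, 0.14, 0.64 and 0.49 in experiment 2. With the longest transcript alone, which holds few or no reads, it was 0.16 for IFIT1 and 0 for IFIT3 in experiment 1 and 0.014 and 0 in experiment 2. The number of genes past 1.5-fold, 588 in experiment 1 and 1744 in experiment 2, was 2424 and 3968 with a pseudocount of 0.1, 1048 and 3632 with TPM and 202 and 290 at a threshold of 2. A smaller pseudocount and the larger scale of TPM shrink low values less by construction. TPM also rescales each library by its own factor, which was larger for Myc-TRIM40 than for the control vector in experiment 2. There IFIT1 measured 2.00 FPKM and 3.62 TPM with the control vector, and 5.06 FPKM and 10.8 TPM with Myc-TRIM40. The TPM ratios of experiment 2 are therefore not raised by weaker shrinkage alone. The cause of the differences between tools was not tested.

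Depth was between 407 and 9442 reads for a member in a library, so having only 2 experiments limited the precision more than counting error did.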
